A study of Mus musculus with 4 samples.

Results

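Islet hormone and secretory granule transcripts were examined in cultures of primary mouse pancreatic acinar cells. The set held 10 genes of the 23282 rows of the count tables, chosen by symbol: the insulin genes Ins1 and Ins2, Iapp, Gcg, Sst, Ppy, Pyy, Chga, Chgb and Ttr. Each symbol stood on a single row. The cells came from C57BL/6J pancreas and were grown with 2.5% serum, trypsin inhibitor and human epidermal growth factor at 25 ng/ml. For 36 h they carried, at a multiplicity of infection of 100, an adenovirus for estrogen-related receptor γ (ERRγ, encoded by Esrrg, an orphan nuclear receptor known for driving oxidative metabolism) or one for green fluorescent protein (GFP, the control). Each virus had 2 libraries, numbered 1 and 2, made from 500 ng of total RNA with a Lexogen QuantSeq kit. Expression came from a viral vector in all 4 libraries, and no uninfected library was analysed here. The labels name no animals or cultures behind the numbers 1 and 2, so p-values reflect the spread between these libraries alone, and that spread may be technical.

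Pancreatic islets are small clusters of endocrine cells set within the exocrine tissue of acini and ducts. Their beta cells make insulin, alpha cells glucagon, delta cells somatostatin and PP cells pancreatic polypeptide, and all of them store peptide in dense granules packed with chromogranins. Hormone messages are among the most abundant transcripts of their cells, whereas acinar cells are known for digestive enzymes. A mouse carries a pair of insulin genes, both expressed in beta cells.

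Library totals ran from 10105604 to 11012351 counts, and 3 counts in a library correspond to 0.267 to 0.307 CPM, the count over a library size scaled by the TMM method. Esrrg, the gene the virus carried, had 1453 and 12994 counts in ERRγ libraries 1 and 2 and 86 and 107 in GFP libraries 1 and 2 (log2 fold change 6.26, SE 1.00, edgeR adjusted p = 0.0109; adjusted p = 0.167 and 0.127 when GFP library 1 or 2 was left out). The labelled cell type was weakly marked: 34 acinar enzyme genes with a row summed to 71.2 to 184 CPM, against 2455 to 3238 CPM for 9 ductal markers. Of the ductal genes Car2 (log2 fold change 3.38, edgeR adjusted p = 0.000208) and Cftr (adjusted p = 0.0444) rose and Krt7 and Muc1 fell; with a GFP library left out the falls had adjusted p-values of 0.203 to 0.265. The pre-ribosomal RNA Rn45s took 9.48% to 11.1% of counts in 3 libraries and 14.4% in GFP library 1.

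Islet hormone transcripts were detected in all 4 libraries, and their sum differed more between the 2 GFP libraries than between the group means. The 10 genes together had 902 and 427 counts in ERRγ libraries 1 and 2 and 2222 and 365 in GFP libraries 1 and 2. As a share of all counts this was 0.00861% (exact 95% interval, 0.00805 to 0.00919), 0.00401% (0.00364 to 0.00441), 0.0220% (0.0211 to 0.0229) and 0.00331% (0.00298 to 0.00367) in the same order. GFP library 1 was the highest and GFP library 2 the lowest, so the ERRγ libraries lay between the control libraries. Intervals cover counting error only, because PCR reads without molecular identifiers are not independent molecules. In RNA from a whole culture, fewer cells of a type and less RNA per cell cannot be told apart.

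**Figure D1:**
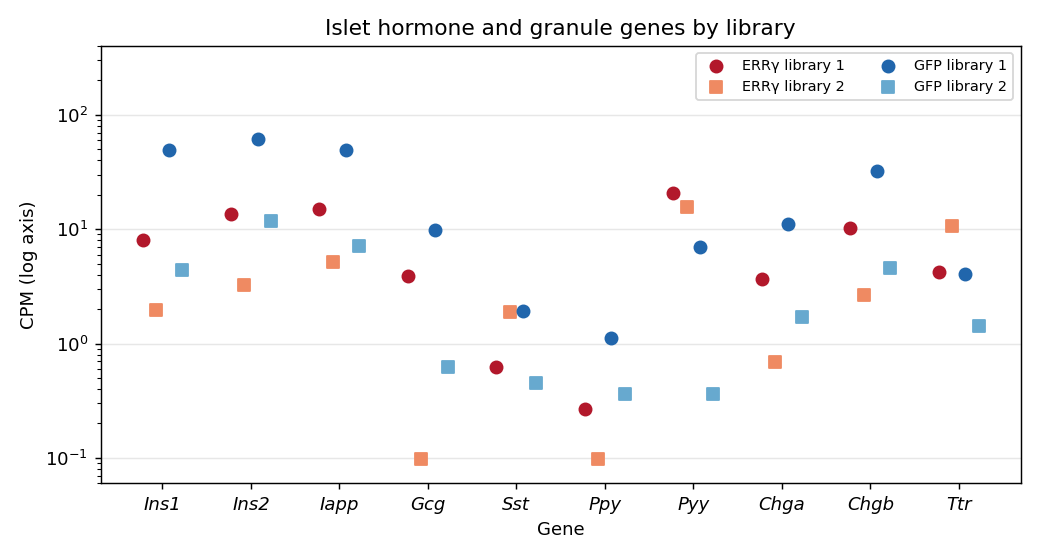
Level of each gene in CPM (log axis) in the 4 libraries; each point is 1 library, with ERRγ in red and orange and GFP in dark and light blue. GFP library 1 is highest for Ins1, Ins2, Iapp, Gcg, Sst, Ppy, Chga and Chgb, while an ERRγ library is highest for Pyy (20.9 CPM) and Ttr (10.7 CPM).

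The insulin genes come first because their counts depend on telling 2 close sequences apart. Ins1 lies on chromosome 19, 52264297 to 52265476, plus strand. Ins2 lies on chromosome 7, minus strand, where GENCODE M21 gives a span of 142678656 to 142743381 and RefSeq 142678656 to 142679726 (GRCm38). The last 90 coding bases of each, read from the GENCODE transcripts and ending with the stop codon, are shown with the bases that differ in capitals (chr19:52264861-52264950, plus strand, and chr7:142678713-142678802, minus strand).
Ins1: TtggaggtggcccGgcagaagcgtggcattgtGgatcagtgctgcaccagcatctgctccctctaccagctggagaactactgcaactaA
Ins2: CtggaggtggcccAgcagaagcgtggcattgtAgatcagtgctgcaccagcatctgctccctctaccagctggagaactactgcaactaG
Of these 90 bases 86 are the same. Over the whole annotated transcripts (1062 bases for Ins1 and 478 for Ins2), 50 windows of 30 bases, 7 of 50 bases and 0 of 75 bases occur in both. A short read from such a stretch could be given to either gene, so the split between Ins1 and Ins2 is less certain than their sum.

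Ins1 had 90 and 20 counts in ERRγ libraries 1 and 2 and 486 and 49 in GFP libraries 1 and 2, which is 8.02 and 1.97 CPM against 49.7 and 4.39 CPM. Ins2 had 153 and 33 against 597 and 130 counts, or 13.6 and 3.26 against 61.0 and 11.7 CPM. For both genes GFP library 1 stood far above the other 3 libraries, and ERRγ library 1 lay above GFP library 2, so the groups overlapped. The fitted log2 fold change was −2.41 for Ins1 (SE 0.99, edgeR adjusted p = 0.195) and −2.09 for Ins2 (SE 0.79, edgeR adjusted p = 0.164), and neither passed the threshold of 0.05. Without GFP library 1 these values became 0.19 and −0.46. Ins1 made up 37.0% and 37.7% of insulin counts with ERRγ (exact intervals, 31.0 to 43.4 and 24.8 to 52.1) and 44.9% and 27.4% with GFP (41.9 to 47.9 and 21.0 to 34.5). The GFP libraries thus differed in this share by more than counting error, with the ERRγ libraries in between.

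Iapp encodes amylin, the peptide that beta cells release together with insulin (chromosome 6, 142298423 to 142303961, plus strand). It had 167 and 52 counts with ERRγ against 480 and 80 with GFP, or 14.9 and 5.13 against 49.0 and 7.17 CPM. The groups overlapped again, with GFP library 1 alone at the top (log2 fold change −1.48, SE 0.79, edgeR adjusted p = 0.308; 0.48 without GFP library 1). Iapp lies within Slco1a5 on the opposite strand, a transporter gene with 0 to 4 counts in a library.

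Gcg encodes proglucagon, the glucagon precursor of alpha cells (chromosome 2, 62474530 to 62483650, minus strand). Its counts were 44 and 1 with ERRγ against 96 and 7 with GFP, so that library 1 stood above library 2 in both groups. With 1 count in ERRγ library 2, the ratio between the ERRγ libraries was 39.7 (exact 95% counting interval, 6.77 to 1605), and between the GFP libraries it was 15.6 (7.30 to 39.9). The groups overlapped (log2 fold change −1.34, SE 1.28, edgeR adjusted p = 0.586), and the value was 1.67 without GFP library 1 and −5.55 without ERRγ library 1. Sst, the somatostatin gene of delta cells (chromosome 16, 23889573 to 23890958, minus strand), had 7 and 19 counts with ERRγ against 19 and 5 with GFP. Unlike the insulin genes, it was lower in ERRγ library 1 than in ERRγ library 2 (ratio 0.333, 0.118 to 0.827), and higher in GFP library 1 than in GFP library 2 (4.33, 1.56 to 14.8). Its log2 fold change was 0.07 (SE 0.87, edgeR adjusted p = 0.973), with either sign when a library was left out (−0.91 to 1.44).

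Ppy and Pyy are neighbours on chromosome 11, 102099930 to 102101319 and 102106676 to 102107832, both on the minus strand and 5356 bases apart. Ppy encodes pancreatic polypeptide, and Pyy encodes peptide YY, a relative made by gut endocrine cells and by part of the islet cells. Ppy was close to the limit of detection, at 3 and 1 counts with ERRγ against 11 and 4 with GFP. It did not pass the filter on low counts, and the other 9 genes did. Its groups did not overlap and GFP was the higher, at levels where single counts decide.

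Pyy ran differently from its neighbour. It had 235 and 159 counts with ERRγ against 69 and 4 with GFP, or 20.9 and 15.7 CPM against 7.05 and 0.359 CPM. The groups did not overlap: both ERRγ libraries lay above GFP library 1, which was itself 19.7 times as high as GFP library 2 (7.34 to 74.2). The log2 fold change was 2.33 (SE 0.83, unadjusted p = 0.0227, edgeR adjusted p = 0.141), which did not pass. Without GFP library 1 it was 5.63 and passed (edgeR adjusted p = 0.0130), as it did without either ERRγ library (2.11 and 2.53), and without GFP library 2 it was 1.37 (adjusted p = 0.155), so its size rests on which control library is used. Pyy was the most abundant of the 10 genes in both ERRγ libraries, and it shared the last place with Ppy, at 4 counts each, in GFP library 2. It made up 26.1% and 37.2% of the counts on the 10 genes with ERRγ (23.2 to 29.0 and 32.6 to 42.0), against 3.11% and 1.10% with GFP (2.42 to 3.91 and 0.299 to 2.78).

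Chga and Chgb encode chromogranins A and B, acidic proteins that pack hormone into granules of most endocrine cells (chromosome 12, 102554969 to 102565028, and chromosome 2, 132781278 to 132795079, both plus strand). Chga had 41 and 7 counts with ERRγ against 109 and 19 with GFP, and Chgb had 115 and 27 against 315 and 51. Each was highest in GFP library 1, then in ERRγ library 1, then in GFP library 2, and lowest in ERRγ library 2, which is also the order of Ins1, Ins2, Iapp and Gcg. The groups overlapped for both. The log2 fold changes were −1.53 for Chga (SE 0.93, edgeR adjusted p = 0.368) and −1.49 for Chgb (SE 0.85, edgeR adjusted p = 0.338), and 0.35 and 0.50 without GFP library 1. Chga was 26.3%, 20.6%, 25.7% and 27.1% of the counts on the pair in ERRγ libraries 1 and 2 and GFP libraries 1 and 2, with intervals that all overlap.

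Ttr encodes transthyretin, a carrier of thyroid hormone and retinol that is made in liver and choroid plexus and also in islets. It had 47 and 108 counts with ERRγ against 40 and 16 with GFP, or 4.19 and 10.7 against 4.09 and 1.43 CPM. The groups did not overlap, but ERRγ library 1 and GFP library 1 were 1.02 times apart, and ERRγ library 2 alone stood high. The log2 fold change was 1.43 (SE 0.61, unadjusted p = 0.0479, edgeR adjusted p = 0.212) and 0.61 without ERRγ library 2. Genes of proteins secreted by liver moved with it: 10 of 10 listed had a row, and they summed to 115 and 264 CPM with ERRγ and 177 and 83.9 CPM with GFP. All 9 tested genes of that list were higher in library 2 than in library 1 of the ERRγ pair, and all 9 were higher in library 1 than in library 2 of the GFP pair; 0 of the 9 passed the edgeR test between the groups (1 at an unadjusted p under 0.05). Over all tested genes the median ratio of library 1 to library 2 was 1.00 with ERRγ and 0.996 with GFP. Alb, the albumin gene, had 399, 1142, 655 and 183 counts in ERRγ libraries 1 and 2 and GFP libraries 1 and 2. None of the 10 liver genes was at 0 throughout. In the red blood cell list, Hbb-b1 and Hbb-bs had the same counts (9, 36, 13 and 2 in that order of libraries). The sum and the 4 tested genes of that list may therefore hold the same reads more than once. Its sum was highest in ERRγ library 2 too (16.3 CPM, 4.93 to 6.64 CPM in the others). With edgeR 0 of the 4 passed, and 1 had an unadjusted p under 0.05. The part of these other sources in the Ttr values was not tested.

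With edgeR's quasi-likelihood test, 0 of the 9 tested members passed an adjusted p of 0.05, where 6.84% of all 13070 genes tested passed (5.06% higher and 1.78% lower with ERRγ). At an unadjusted p under 0.05 there were 4 of 9, namely Ins1, Ins2, Pyy and Ttr, against 23.1% of all genes. DESeq2 and limma-voom called 0 of 9 as well, and 8.89% and 6.66% of all genes. The call depended on other settings: edgeR without a filter called 7 of 10 members (Ins1, Ins2, Iapp, Pyy, Chga, Chgb and Ttr) and 11.2% of all genes, and with the replicate number as a block it called 5 of 9 (Ins1, Ins2, Iapp, Pyy and Chgb) and 8.35% of all genes. Fits that left out 1 library called 8 members without ERRγ library 1, 5 without ERRγ library 2, 1 without GFP library 1 and 0 when GFP library 2 was the one left out; the spread in each came from the pair that remained. The fitted change was negative for 6 of the 9 and positive for 3, with a median of −1.48 against −0.01 over all genes. Pyy and Ttr were the 2 of 9 with both ERRγ libraries above both GFP libraries, a pattern found in 27.4% of all genes, and 0 of 9 showed the reverse (26.6% of all genes). A p that misses the threshold does not show that the levels were alike. The SEs were 0.61 to 1.28 on the log2 scale. Even a fitted change of −2.41 (Ins1) did not pass, so changes well above the SE could be missed with these libraries.

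**Figure D2:**
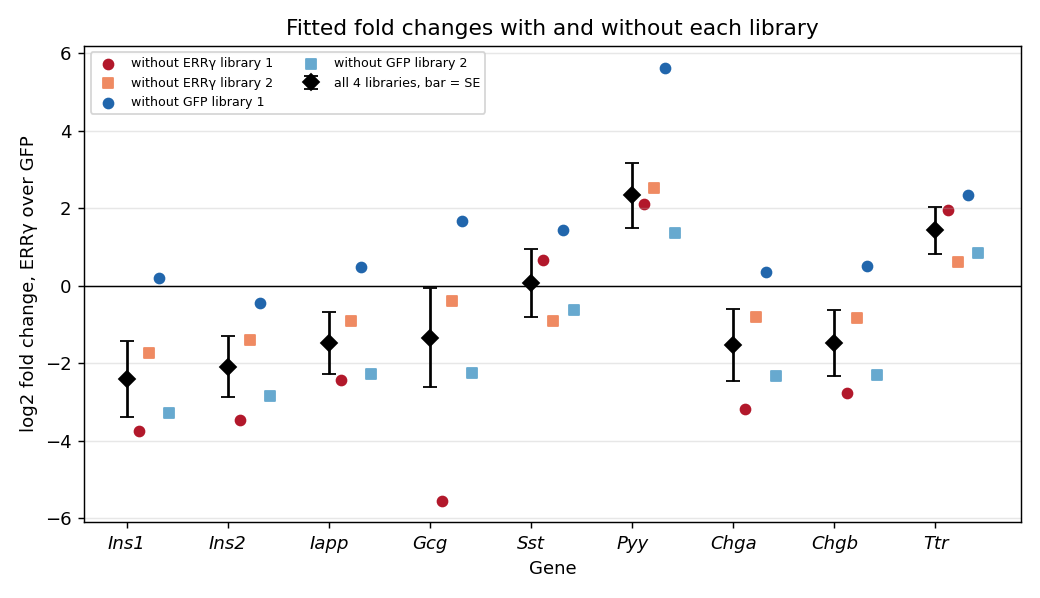
Fitted log2 fold change of ERRγ over GFP for the 9 tested genes; black diamonds use all 4 libraries (bars, SE) and coloured points leave out 1 library each. The points without GFP library 1 lie above zero for Ins1, Iapp, Gcg, Chga and Chgb, whose values with all libraries lie below zero, and all points for Pyy and Ttr lie above zero.

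The difference between the libraries of a group was the larger feature of these genes. In CPM, all 9 tested members were at least 2 times as high in GFP library 1 as in GFP library 2, which held for 4.27% of all genes tested, and 8 of 9 were at least 4 times as high (1.22% of all genes, and 1.53% of the 6064 genes with means between 1.22 and 22.4 CPM, the range of the members). The exception at 4 times was Ttr, at 2.85 (1.56 to 5.45). Between the ERRγ libraries, 6 of 9 were at least 2 times as high in library 1 (5.62% of all genes): Ins1 at 4.06 (2.48 to 6.97), Ins2 at 4.19 (2.86 to 6.30), Iapp at 2.90 (2.11 to 4.04), Gcg, Chga at 5.29 (2.35 to 14.0) and Chgb at 3.85 (2.51 to 6.09). These 6 met the 2-fold mark in both groups, as did 0.979% of all genes and 1.35% of genes in their range of levels. Pyy differed little between the ERRγ libraries (1.33, 1.09 to 1.64), and Sst and Ttr ran the other way there. The libraries that share a number are not stated to be paired, and these ratios compare single libraries.

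**Figure D3:**
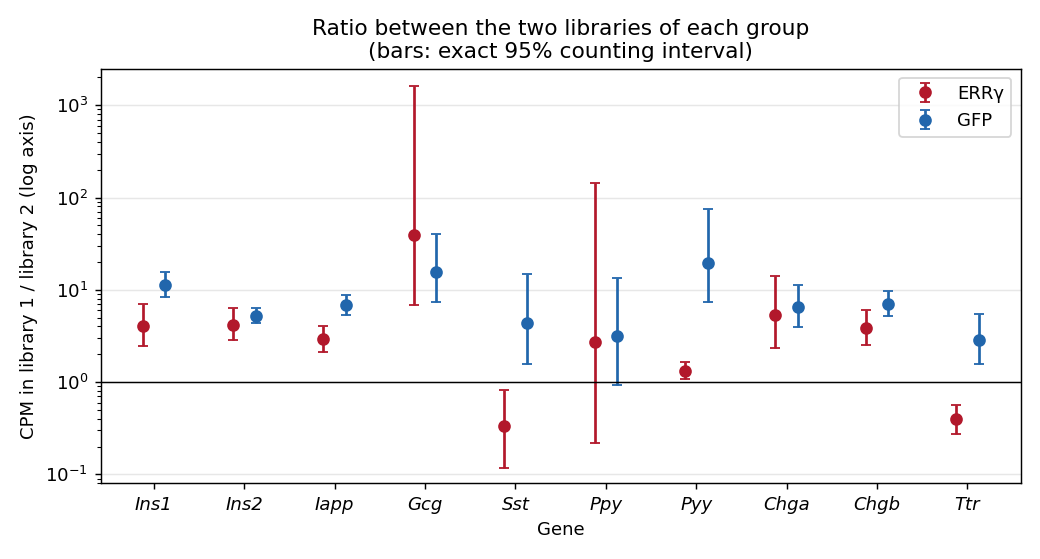
CPM in library 1 divided by CPM in library 2 (log axis) for each gene, in ERRγ (red) and GFP (blue); bars are exact 95% counting intervals and the line marks equal levels. All GFP ratios are above 1, while the ERRγ ratios of Sst (0.333) and Ttr (0.393) are below 1.

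Acinar enzyme genes leaned the same way. Of 20 tested, 19 were higher in library 1 of the GFP pair, with a median ratio to library 2 of 4.46. In the ERRγ pair 15 were higher in library 1, with a median ratio of 2.11. The 20 include the amylase genes Amy2a2, Amy2a3, Amy2a4 and Amy2a5, whose counts were nearly proportional to each other. They may share reads and are not separate observations. The medians for the 9 tested islet members were 6.84 and 3.85. The acinar sum was 140 and 123 CPM with ERRγ and 184 and 71.2 CPM with GFP, with Try10 and Ctrc at 0 in all libraries. Its most abundant gene, Ctrb1 (chymotrypsinogen B), had 512, 547, 460 and 354 counts in ERRγ libraries 1 and 2 and GFP libraries 1 and 2, which does not follow the islet order. Prss2, a trypsinogen gene of a family that can share reads, was the 1 of 20 that passed the test, at 157 and 271 counts with ERRγ against 37 and 24 with GFP (log2 fold change 2.78, SE 0.42, edgeR adjusted p = 0.00905; adjusted p = 0.0720 and 0.0962 when GFP library 1 or 2 was left out). Ductal markers had median ratios of 1.01 and 0.992 in the same comparisons, and all tested genes 0.996 and 1.00. The part of residual acinar material in the islet values was not tested.

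**Figure D4:**
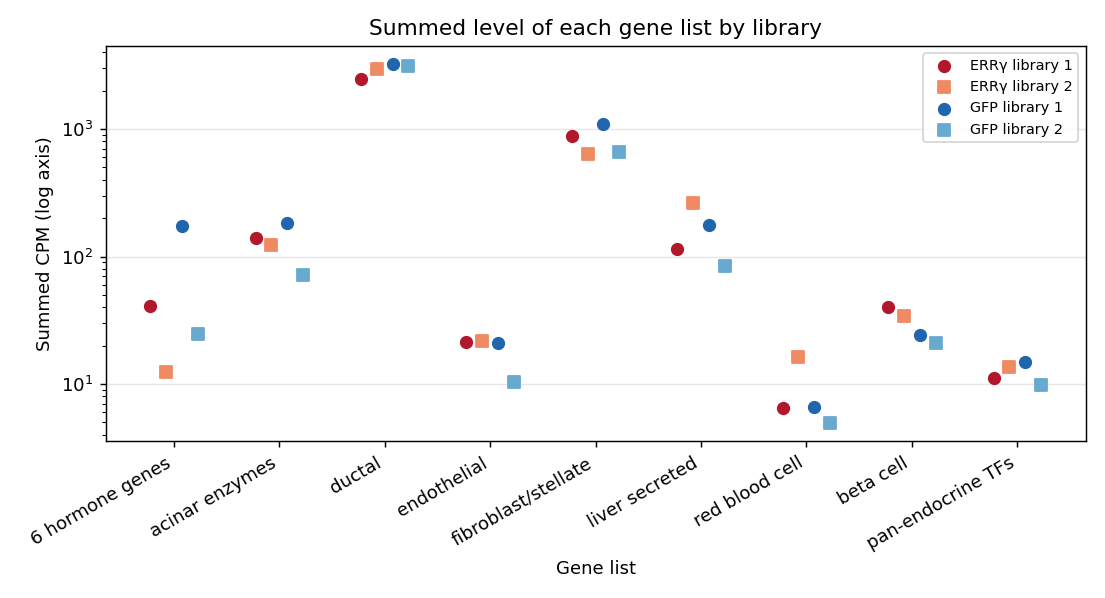
Summed CPM (log axis) of each gene list in the 4 libraries, with Ins1, Ins2, Gcg, Sst, Ppy and Iapp as the hormone genes. The hormone sum spans 12.4 to 173 CPM and the acinar enzyme sum 71.2 to 184 CPM, whereas the ductal sum stays between 2455 and 3238 CPM.

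In the lists of islet cell types and pan-endocrine factors, most genes did not follow the hormones, though some scarce ones did. Being higher in CPM in library 1 in both groups was counted over genes with a count. It held for 2 of 13 beta cell, 1 of 6 alpha cell and 2 of 6 delta, PP and epsilon cell markers. Among pan-endocrine factors it held for 3 of 10, and among members for 8 of 10. Over tested genes only, it held for 7 of 9 members and 25.5% of all genes. The 15 beta cell markers summed to 40.5 and 34.3 CPM with ERRγ and 24.3 and 21.1 CPM with GFP; 8 were tested, 0 passed (3 at an unadjusted p under 0.05), and the median log2 fold change was −0.16. Mafa, which activates insulin transcription in mature beta cells, and Glp1r, the incretin receptor gene, had no count in any library. The most abundant beta cell markers were Npy, with 266, 49, 19 and 46 counts in ERRγ libraries 1 and 2 and GFP libraries 1 and 2 (log2 fold change 2.22, SE 0.71, edgeR adjusted p = 0.106), and Nkx6-1, a beta cell transcription factor, with 49, 171, 44 and 31 (1.54, SE 0.61, edgeR adjusted p = 0.179). Neither is highest in GFP library 1. Of the others, named after their values were seen, the zinc transporter gene Slc30a8 had 6, 0, 0 and 0 counts and Pdx1, a factor of beta cells and pancreas progenitors, 42, 25, 29 and 34.

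Among alpha cell markers, Gc, the gene of a vitamin D binding protein also made in liver, held most of the list's sum at 69.2 to 138 CPM, and Slc38a5, Dpp10 and Brs3 were at 0. For delta, PP and epsilon cells 0 of 3 tested genes passed (1 at an unadjusted p under 0.05; median −0.66), with Ghsr and Npy4r at 0. Hhex, a delta cell factor also expressed in ducts, had 122, 63, 166 and 168 counts and Rgs2, a G protein regulator, 404, 516, 349 and 393. Pan-endocrine transcription factors stood at 9.77 to 14.8 CPM in sum, with 0 of 3 tested genes past the threshold (0 at an unadjusted p under 0.05; median 0.26) and Fev and Pax4 at 0. The most abundant were Nkx2-2 (56, 59, 51 and 43 counts) and Rfx3 (31, 57, 47 and 45 counts). The 3 pan-endocrine genes higher in library 1 of both groups, named after their values were seen, were Isl1 (8, 2, 22 and 3 counts), Insm1 (13, 6, 11 and 2 counts) and Neurod1 (2, 0, 5 and 0 counts), and the alpha cell marker was Irx1 (11, 5, 24 and 3 counts). The ratio of GFP library 1 to GFP library 2 had a median of 6.84 over the 9 tested members. It was 11.3 for Ins1 (8.42 to 15.5) and 5.23 for Ins2 (4.32 to 6.38). Over tested genes only, the median of this ratio was 1.26 for 8 beta cell markers, 0.938 for 4 alpha cell markers and 1.35 for 3 pan-endocrine factors. Isl1 and Neurod1, with 22 and 3 and with 5 and 0 counts in GFP libraries 1 and 2, were not tested. These medians therefore leave them out. At counts this low, a change of the same size in the scarcest markers was not detectable. Whether the hormone transcripts came from living islet cells in the cultures or from tissue carried over at isolation was not tested.

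Genes that cut and package hormones were 20 in the list, 12 of them tested, and 0 passed (3 at an unadjusted p under 0.05; median log2 fold change −0.47). Cpe and Pam, which trim and amidate peptides and are widely expressed, held most of the sum, with 2763, 2817, 2978 and 3399 counts and 1270, 1373, 1185 and 1365 counts in ERRγ libraries 1 and 2 and GFP libraries 1 and 2. Scg2, the secretogranin II gene, named here as 1 of the nearest genes to Chgb, followed the islet order of libraries, with 31, 15, 107 and 21 counts. Of the 20 genes, 11 were higher in CPM in library 1 in both groups, Scg2 among them, against 25.5% of all genes tested. Others of the 11, named after their values were seen, were Pcsk2 (15, 2, 55 and 29 counts), Pcsk1n (15, 12, 33 and 6) and the scarce Scgn (2, 0, 1 and 0). The gut hormone list had 4 of 7 genes at 0 (Gip, Sct, Tph1 and Gast). Cck, the cholecystokinin gene, had 131, 105, 233 and 126 counts (log2 fold change −0.67, SE 0.35, edgeR adjusted p = 0.303), and Nts, the neurotensin gene, had 6, 3, 2 and 15.

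Of the lists for other cells that a pancreas preparation could hold, the 10 endothelial markers summed to 10.4 to 21.7 CPM, the 10 leukocyte markers to 7.40 to 15.9 CPM with Cd3e at 0, the 10 fibroblast and stellate markers to 637 to 1087 CPM, and the 10 Schwann cell and neuron markers to 93.9 to 146 CPM with Cdh19 at 0. With edgeR 0 of 7, 0 of 2, 0 of 10 and 0 of 3 tested genes of these lists passed, and 2, 0, 1 and 1 had an unadjusted p under 0.05. The fibroblast and stellate sum was higher in library 1 in both groups (1.39 and 1.64 times), led by Acta2 with 2786 and 859 counts with ERRγ against 3310 and 1723 with GFP. Acta2 encodes the smooth muscle actin of activated stellate cells.

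Ratios between members within a library do not depend on library scaling. These ratios were chosen after the values were seen, so they are given as a description and were not tested across libraries. Of 8 computed, 5 did not overlap between the groups; all 5 hold insulin, and 3 of them are the same contrast with Chgb (for the sum, Ins1 and Ins2), so they are not separate observations. Counts on Ins1 and Ins2 together were 2.11 times those on Chgb in ERRγ library 1 (exact 95% counting interval, 1.69 to 2.66) and 1.96 times in ERRγ library 2 (1.21 to 3.25), against 3.44 (3.03 to 3.91) and 3.51 (2.56 to 4.89) in GFP libraries 1 and 2. The mean ratios were 2.04 ± 0.106 with ERRγ and 3.47 ± 0.0507 with GFP (SD, n = 2 each), a quotient of 0.587. Of all tested genes, 0.115% had a ratio to Chgb that was lower in both ERRγ libraries than in both GFP libraries, 0.107% a ratio to Chga and 0.138% a ratio to Iapp. Most genes vary less between libraries than these denominators, which makes their ratios overlap, so this background is no measure for genes of like profile. The GFP libraries gave nearly the same ratio for the sum although their insulin counts were 1083 and 179. Gene by gene they were less alike, at 1.54 and 0.961 for Ins1 to Chgb and 1.90 and 2.55 for Ins2 to Chgb. The interval of Ins1 to Chgb in GFP library 2 (0.636 to 1.45) overlapped those of ERRγ libraries 1 and 2 (0.587 to 1.04 and 0.394 to 1.37).

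Against Iapp the groups did not overlap either, with 1.46 and 1.02 for ERRγ and 2.26 and 2.24 for GFP. The same held against Chga, with 5.93 and 7.57 for ERRγ and 9.94 and 9.42 for GFP. With 7 Chga counts in ERRγ library 2, the interval there (3.43 to 19.7) covered both GFP values. The ratio of Iapp to Chgb was 1.45 and 1.93 with ERRγ and 1.52 and 1.57 with GFP, and that of Chgb to Chga 2.80 and 3.86 against 2.89 and 2.68; both overlapped. Insulin against Gcg was 5.52 and 53.0 with ERRγ and 11.3 and 25.6 with GFP, which overlapped widely. Sst did not keep a fixed ratio to insulin: it was 26.4% of the summed counts on Sst, Ins1 and Ins2 in ERRγ library 2 (16.7 to 38.1) and 1.72% to 2.80% in the other 3 libraries.

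**Figure D5:**
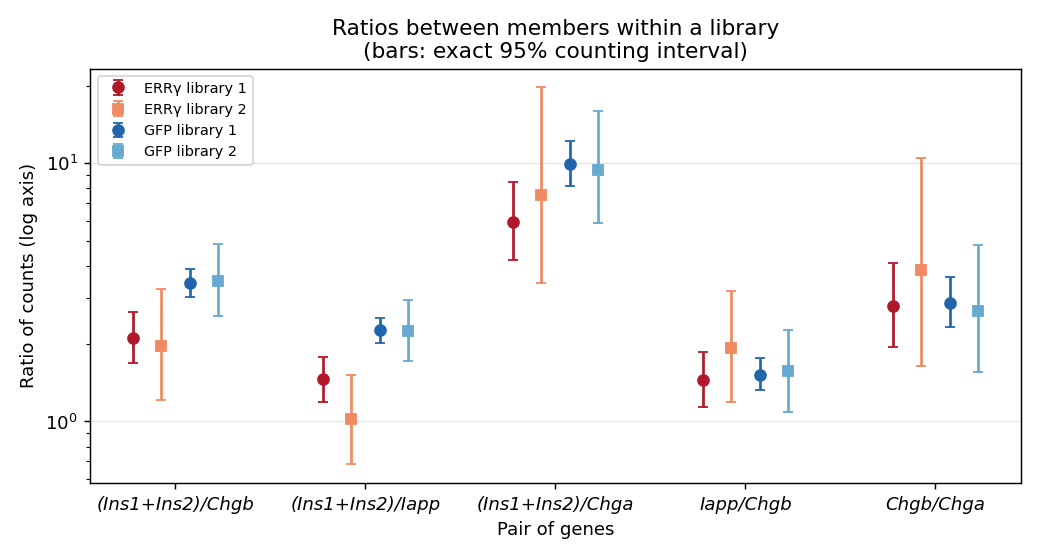
Ratio of counts between members (log axis) in each library, with exact 95% counting intervals. Insulin relative to Chgb is 2.11 and 1.96 in the ERRγ libraries and 3.44 and 3.51 in the GFP libraries, whereas Iapp to Chgb and Chgb to Chga overlap between the groups.

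The pattern across the 4 libraries grouped the members. Likeness was measured as the Euclidean distance between mean-centred log2 CPM over the 4 libraries, so that 0 is the same profile. Chga and Chgb lay 0.27 apart, Iapp and Chgb 0.28, Ins2 and Chga 0.65, and Ins1 and Ins2 0.77. Ins1 lay 5.16 from Pyy, 4.21 from Ttr and 3.28 from Sst. Candidates were the tested genes within 4 times the mean CPM of the member, without predicted genes (Gm and Rik symbols) and repeated rows of a symbol. Nearest to Ins1 were Ins2, Chga and Chgb, with only 4 of 7173 candidates within a distance of 1. The nearest to Ins2 were Ins1, Chgb and Heph, those to Iapp Chgb, Heph and Ins1, and those to Gcg Chga, Chgb and Traf3ip3. Chga had Traf3ip3 (0.25), Chgb and Ccl3 nearest, and Chgb had Chga, Iapp and Scg2. These lists mix the members with an iron oxidase gene (Heph), a lymphocyte adaptor gene (Traf3ip3) and a chemokine gene (Ccl3).

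Pyy had no gene within a distance of 1 among 6682 candidates. Its nearest were Ntrk2, a neurotrophin receptor gene, with 67, 57, 10 and 1 counts in ERRγ libraries 1 and 2 and GFP libraries 1 and 2 (distance 1.17), Eomes, a transcription factor gene, with 78, 51, 18 and 4 (1.46), and Kcnh1, a potassium channel gene, with 80, 76, 9 and 2 (1.59). Of these, Ntrk2 (log2 fold change 3.40, edgeR adjusted p = 0.0382) and Kcnh1 (3.75, edgeR adjusted p = 0.0137) passed the test and Eomes did not (2.47, edgeR adjusted p = 0.0700). Ntrk2 no longer passed when either GFP library was left out (5.84 and adjusted p = 0.0616 without library 1, 2.49 and 0.148 without library 2), nor did Kcnh1 without GFP library 2 (2.97, adjusted p = 0.0884). Ttr had 98 of 5221 candidates within 1, with Serpina3k (0.20), Kif13b (0.22) and Apoc1 (0.35) nearest. Serpina3k encodes a serpin and Apoc1 an apolipoprotein, both secreted by liver. For Sst, 128 of 2398 candidates lay within 1, with Gucy1a2, Gimap8 and Samd12 nearest. At 5 to 19 counts its profile is loosely determined.

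Promoter letters were read for the members because the virus carried a DNA-binding receptor. RefSeq entries on GRCm38.p6 matched Ins1, Gcg, Sst, Ppy, Iapp, Pyy, Chga and Chgb, 8 of the 10 genes; Ins2 and Ttr had none. The 120 bases before the start are printed for Ins1, Iapp and Gcg, which share an order of libraries, and for Pyy, which ran apart from them, with matches to the searched motifs in capitals, all of them TATAA or its reverse complement (chr19:52264177-52264296, plus strand; chr6:142298305-142298424, plus strand; chr2:62483654-62483773, minus strand; chr11:102107833-102107952, minus strand).
Ins1: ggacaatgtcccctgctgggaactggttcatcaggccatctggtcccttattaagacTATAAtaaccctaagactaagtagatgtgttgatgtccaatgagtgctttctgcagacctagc
Iapp: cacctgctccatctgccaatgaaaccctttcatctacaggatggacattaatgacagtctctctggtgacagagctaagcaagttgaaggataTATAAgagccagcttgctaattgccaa
Gcg: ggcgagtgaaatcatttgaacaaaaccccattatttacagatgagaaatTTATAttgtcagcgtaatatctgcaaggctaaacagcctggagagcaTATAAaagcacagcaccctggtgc
Pyy: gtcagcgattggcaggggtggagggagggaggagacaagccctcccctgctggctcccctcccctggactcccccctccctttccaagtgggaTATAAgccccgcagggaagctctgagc
In the 250 bases before the start, on either strand, the ERR recognition motif AAGGTCA was found for 0 of the 8 genes and in 4.08% of the 32851 promoter entries. TATAA was found for 5 of 8 (Ins1, Gcg, Ppy, Iapp and Pyy) and in 22.8% of entries, and TGACGTCA, the cAMP response element, for Sst and Chgb and in 1.55%. None of the 3 motifs holds another, and a match or its absence describes only these letters in this window.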

How the data were processed

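Transcript-end libraries from 4 samples were used, 2 with ERRγ and 2 with GFP virus. The deposited tables hold whole-number read counts per gene symbol without normalization, and Bowtie2, edgeR and mm10 are named, without versions, per the submitters' processing notes. How reads were counted (tool, annotation, strand, multiply matching reads) and how long they were is not stated in the labels or files, and each could shift counts of close copies such as Ins1 and Ins2. Each row was counted as deposited, and 17888 of 23282 rows had a count. In R 4.3.3, edgeR 4.0.16 was fitted to all 4 libraries with the group alone: filterByExpr with a minimum count of 10 (13070 rows kept), TMM scaling (factors 1.071, 0.9521, 0.9684 and 1.013), glmQLFit and glmQLFTest, two-sided, with Benjamini-Hochberg adjustment over all rows tested and a threshold of 0.05. The fit was tested on simulated counts. SE is the log2 fold change divided by the square root of F. DESeq2 1.42.0 and limma 3.58.1 (voom) were run beside it, with other scalings and filters, a replicate block and each library left out. With 3 libraries in a fit, the lone library of a group is assumed to vary like the other group. Counting intervals are exact (Clopper-Pearson, scipy 1.17.1). Log2 CPM for likeness used a prior count of 2. Positions are from GENCODE M21 on GRCm38. The members and lists were chosen with earlier results of these data known. All members were named. Other genes came from a rule: in each list up to 3 past the threshold and the 2 of highest mean CPM, of which those beside a member's result are given, and the 3 genes nearest each tested member. A single-gene result among the alpha cell markers is not reported here.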

Additional observations from a re-analysis of the deposited data

How the results depend on the processing

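The count of members past the threshold (0 of 9) was the same with DESeq2, limma-voom, RLE size factors and library totals. With the 5 CPM filter it was 0 too, but only Ins1, Ins2, Iapp, Pyy and Chgb were tested there. The count differed without a filter and with the replicate block. Without a filter, 7 members passed (Ins1, Ins2, Iapp, Pyy, Chga, Chgb and Ttr), as did 11.2% of all genes (1271 higher and 738 lower with ERRγ against 661 and 233); the SE of Ins1 fell there from 0.99 to 0.29 with the fold change at −2.42, and the cause was not tested. With the replicate block, 5 members passed (Ins1, Ins2, Iapp, Pyy and Chgb) and 8.35% of all genes. Nothing in the labels pairs the libraries. Their deviations did not correlate across genes (r = 0.00744, genes not being independent replicates). A correlation over all genes cannot decide whether a subset of them shares a deviation. In both groups, 6 of 9 members and 0.979% of all genes were at least 2 times as high in library 1. Whether libraries of the same number share a source was not tested. Leaving out 1 library gave 0 to 8 members past the threshold (8 without ERRγ library 1, 5 without ERRγ library 2, 1 without GFP library 1, 0 without GFP library 2), 92 to 1597 genes higher and 7 to 1098 lower. The log2 fold changes then ran from −3.76 to 0.19 for Ins1, −3.47 to −0.46 for Ins2, −5.55 to 1.67 for Gcg, −0.91 to 1.44 for Sst, −2.44 to 0.48 for Iapp, 1.37 to 5.63 for Pyy, −3.18 to 0.35 for Chga, −2.77 to 0.50 for Chgb and 0.61 to 2.35 for Ttr. The ERRγ minus GFP difference in counts on the 10 genes was −63.4 CPM of library totals, −68.0 to −76.8 with other denominators or the 6 hormone genes alone, and −157 to 29.9 without 1 library (29.9 without GFP library 1). The log2 quotient of the insulin to Chgb ratio was −0.77, −0.82 to −0.72 without 1 library, −0.86 with Iapp and −0.52 with Chga in place of Chgb, alternatives chosen after seeing the data.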
